A study of Mus musculus with 6 samples.

Results

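Drd1, Drd2, Adora2a, Ppp1r1b, Rgs9, Gpr6 and Pde10a mark medium spiny neurons, the projection neurons of the striatum. These 7 genes, of 47794 in the deposited table, were picked by name with their group means already known. The tissue was primary somatosensory cortex of C57BL/6 mice aged 14 days. In the 3 overexpression libraries (Ovp) the mice carried β-cat lox(ex3), an allele of the β-catenin gene Ctnnb1 with loxP sites around exon 3, together with Nex-Cre. In the 3 control libraries (Ctrl) the mice carried the same β-cat lox(ex3) allele without Cre. Nex-Cre is expressed from the Neurod6 locus and recombines in excitatory neurons of the forebrain, where loss of exon 3 removes the sites that mark β-catenin for degradation. The labels number the replicates without saying that each came from its own animal, so the spread between libraries may be technical in part.

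Medium spiny neurons are inhibitory and arise in the ventral forebrain, outside the lineage in which Nex-Cre is active. Those of the direct pathway carry the dopamine receptor Drd1, and those of the indirect pathway carry Drd2 together with the adenosine receptor Adora2a. Dopamine acts through Drd1 to raise cyclic AMP and through Drd2 to lower it, and the signal meets at DARPP-32, the product of Ppp1r1b. In cortex the same receptors are also found at lower levels on some pyramidal cells and interneurons, so that their transcripts are not exclusive to striatum.

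Per gene and group the deposited table gives 1 mean over the libraries, each library's reads having been divided by its scaling factor, and such values are here called scaled reads. Reads of the single libraries were recovered from those means, as described under the processing of the data, and within each group A is the library with the highest scaling factor, C that with the lowest. They could not be tied to the replicate numbers of the labels. The scaling factors, which follow depth, were 1.23, 1.06 and 0.966 in Ovp A, B and C and 0.982, 0.926 and 0.907 in Ctrl A, B and C. Ctnnb1 averaged 6391 scaled reads in Ovp and 7574 in Ctrl, a log2 fold change of -0.25. A gene-level count does not show removal of a single exon, so it does not check the genotype. Neurod6, the locus that holds Cre, averaged 1199 scaled reads in Ovp and 1942 in Ctrl, a log2 fold change of -0.70. The authors' deposited table held 30152 tested genes, of which 0 (0%) had an adjusted p under 0.05, and 161 genes (0.534%) had an unadjusted p under 0.05.

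The libraries also differed in markers of tissue outside the labelled area. Fibcd1, a marker of hippocampal CA1, had 737, 367 and 500 scaled reads in Ovp A, B and C and 1010, 974 and 315 in Ctrl A, B and C. The summed level of the 5 recovered hippocampal markers of 6 on the list was 1320, 422 and 791 in Ovp and 1555, 1313 and 379 in Ctrl. That sum was lowest in Ovp B and Ctrl C. Of the 7 medium spiny neuron genes, 2 were also lowest of the Ovp libraries in Ovp B, Gpr6 and Pde10a, and 0 were lowest of the Ctrl libraries in Ctrl C. Markers of cortical excitatory neurons, the main cell type of the labelled tissue, were steadier, and 6 of 8 on the list summed to 9543, 10600 and 9354 in Ovp and 10144, 10219 and 10185 in Ctrl.

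Promoter sequences were available for 5 of the 7 genes (RefSeq, GRCm38.p6), and 3 are shown. Of these, Drd2 and Rgs9 had r of 0.98 to each other over the 6 libraries, while Gpr6 had r of 0.39 to Drd2. With the group means removed, Gpr6 had r of 0.80 to Drd2. Each is the 250 bases before the annotated start, 5′ to 3′ on the gene's strand, at chr9:49340153-49340402 (+) for Drd2, chr11:109298182-109298431 (-) for Rgs9 and chr10:41072291-41072540 (-) for Gpr6. Capitals mark matches, on either strand, to the GC box core GGGCGG, to the TATA box letters TATAAA, to the E-box CAGCTG and to the palindrome TGACGTCA of cyclic AMP response elements. The nuclear receptor motif AGGTCA was searched as well.
Drd2: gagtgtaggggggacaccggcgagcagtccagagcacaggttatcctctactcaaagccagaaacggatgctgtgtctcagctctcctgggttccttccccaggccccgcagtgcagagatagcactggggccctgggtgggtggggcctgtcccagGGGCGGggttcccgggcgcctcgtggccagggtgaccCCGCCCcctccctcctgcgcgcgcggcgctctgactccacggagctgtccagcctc
Rgs9: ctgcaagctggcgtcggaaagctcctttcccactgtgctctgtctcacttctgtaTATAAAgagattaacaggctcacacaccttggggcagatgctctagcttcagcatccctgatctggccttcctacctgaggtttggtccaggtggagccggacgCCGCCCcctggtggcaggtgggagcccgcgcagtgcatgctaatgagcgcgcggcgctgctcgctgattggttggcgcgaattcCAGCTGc
Gpr6: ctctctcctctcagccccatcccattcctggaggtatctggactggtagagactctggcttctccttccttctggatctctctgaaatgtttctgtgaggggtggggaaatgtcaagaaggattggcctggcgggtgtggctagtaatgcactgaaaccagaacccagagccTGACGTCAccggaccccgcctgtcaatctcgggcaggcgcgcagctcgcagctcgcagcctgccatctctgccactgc
Drd2 held 2 GGGCGG matches, and Rgs9 held 1, while 33.0% of 27025 promoters of that length held the motif. Rgs9 also held TATAAA, found in 13.0% of promoters, and CAGCTG, found in 12.7%. Gpr6 held the palindrome TGACGTCA, which 1.6% of promoters held. Its shorter core TGACG, which overlaps the palindrome, stood in 17.8% of promoters. The 3 promoters were rich in G and C, with 68.8% in Drd2, 59.6% in Rgs9 and 58.4% in Gpr6, against a median of 52.0% over all promoters. AGGTCA was in none of the 3, and 13.8% of promoters held it. Drd1, whose promoter is not shown, had r of 0.995 to Drd2, the highest of all pairs, yet held 0 matches to each motif. Pde10a, not shown either, held 1 GGGCGG match. These matches describe the letters of the windows and nothing of binding or use.

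The groups overlapped for both dopamine receptors. Gene loci are given on GRCm38 from GENCODE annotation. Drd1 (ENSMUSG00000021478, chr13:54051183-54055705), the receptor of the direct pathway, had 287, 296 and 393 scaled reads in Ovp A, B and C and 219, 292 and 353 in Ctrl A, B and C. Over the 6 libraries Ovp C was highest and Ctrl A was lowest. Its means were 325 ± 59.1 in Ovp and 288 ± 67.1 in Ctrl (SD, n = 3 each), a log2 fold change of 0.18.

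Drd2 (ENSMUSG00000032259, chr9:49340627-49408177), the receptor of the indirect pathway, had 86.4, 98.8 and 154 scaled reads in Ovp A, B and C and 51.9, 88.6 and 124 in Ctrl A, B and C. The order of the libraries was that of Drd1 within each group, and again the groups overlapped. The means were 113 ± 36.1 in Ovp and 88.0 ± 35.8 in Ctrl, a log2 fold change of 0.36. Behind these values stood 106, 105 and 149 reads in Ovp and 51, 82 and 112 in Ctrl. The SD was 31.9% of the mean in Ovp and 40.7% in Ctrl, where counting error alone would give 9.13% and 11.1%.

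Adora2a (ENSMUSG00000020178, chr10:75316877-75334784) encodes an adenosine receptor, which raises cyclic AMP in the same neurons in which Drd2 lowers it. It had 222, 291 and 420 scaled reads in Ovp A, B and C and 108, 267 and 287 in Ctrl A, B and C. It varied most of the 7 genes: its highest library, Ovp C, held 3.89 times the level of its lowest, Ctrl A. Only 0.426% of 11514 genes averaging 50 scaled reads or more spanned as wide a range over the 6 libraries, and the median gene spanned 1.29-fold. The means were 311 ± 101 in Ovp and 220.5 ± 98.0 in Ctrl, and the log2 fold change of 0.50 was the largest of the 7.

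Gpr6 (ENSMUSG00000046922, chr10:41069977-41072285), an orphan receptor of indirect pathway neurons that couples to cyclic AMP, had a lower mean in Ovp. It had 75.0, 73.4 and 97.3 scaled reads in Ovp A, B and C and 81.5, 108 and 97.0 in Ctrl A, B and C. Ovp A and Ovp B lay below all Ctrl libraries, and Ovp C lay between Ctrl B and Ctrl C. Its means were 81.9 ± 13.3 in Ovp and 95.5 ± 13.3 in Ctrl, a log2 fold change of -0.22. The SD was 16.3% of the mean in Ovp and 14.0% in Ctrl, against 10.7% and 10.6% from counting error alone.

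Downstream of the receptors, Ppp1r1b (ENSMUSG00000061718, chr11:98348404-98357796) encodes DARPP-32, which inhibits protein phosphatase 1 once protein kinase A has phosphorylated it. It had 1104, 1613 and 1788 scaled reads in Ovp A, B and C and 847, 1285 and 1398 in Ctrl A, B and C. Here Ovp B and Ovp C lay above all Ctrl libraries, while Ovp A lay below Ctrl B. The means were 1502 ± 355 in Ovp and 1177 ± 291 in Ctrl, a log2 fold change of 0.35. An antisense gene, 1700003D09Rik, shares 460 of the 2928 exonic bases of Ppp1r1b, and because the strand setting of the counting is not given in the sources used here, reads of the 2 genes cannot be told apart there. That gene averaged 11.4 scaled reads in Ovp and 11.1 in Ctrl.

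Rgs9 (ENSMUSG00000020599, chr11:109225355-109298129), whose striatal form speeds the end of G protein signals from dopamine receptors, had 513, 594 and 828 scaled reads in Ovp A, B and C and 264, 538 and 708 in Ctrl A, B and C. Ctrl A held about as little relative to the other Ctrl libraries as it did for Adora2a. The means were 645 ± 163 in Ovp and 503 ± 224 in Ctrl, a log2 fold change of 0.36. Its range of 3.14-fold over the 6 libraries was matched by 0.73% of genes.

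Pde10a (ENSMUSG00000023868, chr17:8525372-8986648), the phosphodiesterase that breaks down cyclic nucleotides in medium spiny neurons of both pathways, had 2260, 1876 and 2631 scaled reads in Ovp A, B and C and 2016, 2300.5 and 2593 in Ctrl A, B and C. The groups covered nearly the same range. Its means were 2255 ± 378 in Ovp and 2303 ± 288 in Ctrl, a log2 fold change of -0.03, and its range of 1.40-fold was matched by 30.6% of genes.

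**Figure D1:**
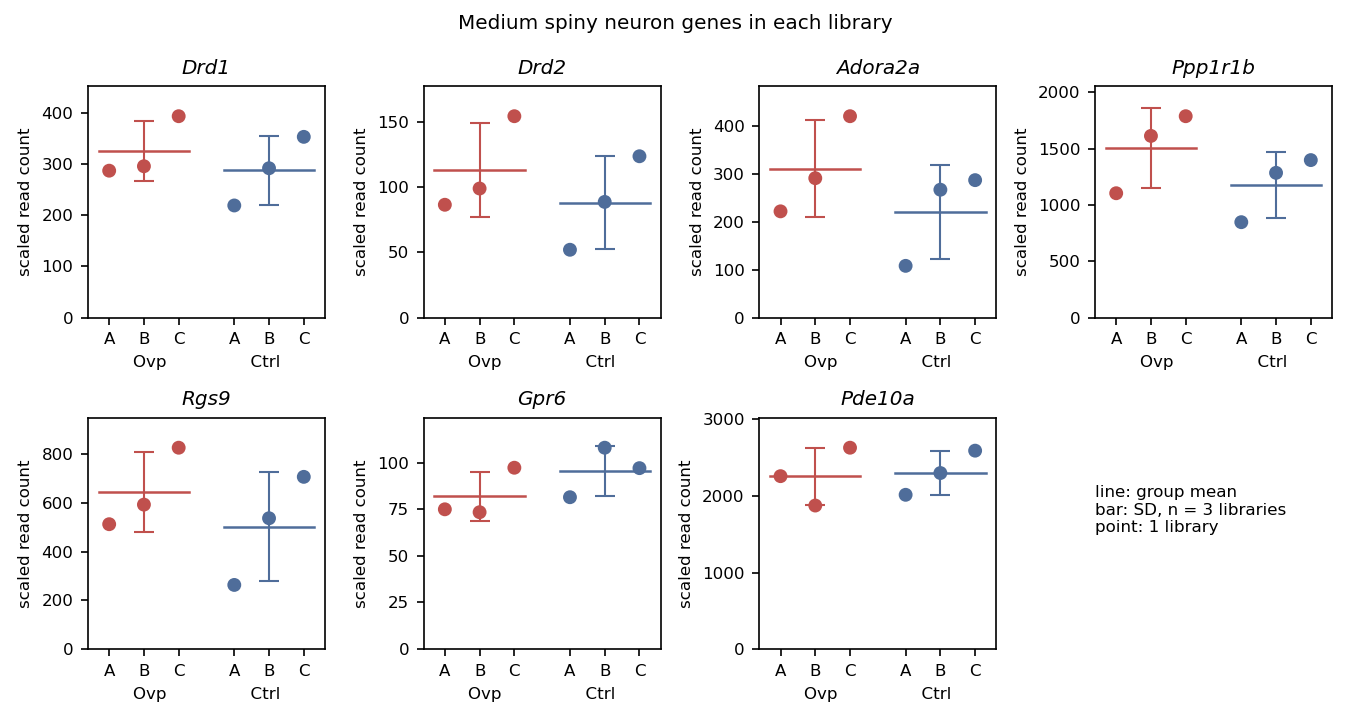
Scaled reads (y axis, linear and starting at 0) of each gene in the Ovp libraries A to C and the Ctrl libraries A to C, with points for libraries, lines for group means and bars for the SD (n = 3). Ctrl A is the lowest Ctrl library and Ovp C the highest Ovp library in all 7 panels, and the groups overlap in each.

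Per kilobase of exon, the order of the levels was much the same in both groups. Ppp1r1b stood highest with 513 scaled reads per kb in Ovp and 402 in Ctrl, and Pde10a followed with 176 in Ovp and 179 in Ctrl. Adora2a, Rgs9 and Drd1 came next with 102, 101 and 89.6 scaled reads per kb in Ovp and 72.0, 78.7 and 79.3 in Ctrl. These 3 did not differ beyond their spread, since their libraries ran from 72.4 to 137 scaled reads per kb in Ovp and from 35.2 to 111 in Ctrl. Gpr6 and Drd2 were lowest, with 45.8 and 44.4 scaled reads per kb in Ovp and 53.5 and 34.6 in Ctrl, and their libraries overlapped in both groups. In Ctrl the libraries of Gpr6 also overlapped those of the 3 genes above it, and those of Drd2 overlapped those of Adora2a and Rgs9. These overlaps are of ranges across libraries. Within each of the 6 libraries Drd2 lay below Adora2a and Rgs9, as in Ctrl A with 20.4 scaled reads per kb against 35.2 and 41.3. It lay below Gpr6 within each Ctrl library too.

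None of the 7 genes separated the groups: 0 of 7 had all Ovp libraries on one side of all Ctrl libraries, where 949 of 15378 recovered genes (6.17%) did, 3.41% with Ovp above and 2.76% with Ovp below. The authors' deposited table called 0 of the 7 at an adjusted p under 0.05. The mean was higher in Ovp for 5 of 7 genes, where it was so for 46.8% of the 17095 genes averaging 10 or more. Their median log2 fold change was 0.35, against -0.01 over those genes. No test is given, because the genes were picked with these means known. With Ctrl A left out, the median log2 fold change of the 7 was 0.05 and the value for Adora2a was 0.17. With Ovp C left out, the median was 0.07 and Adora2a had 0.22. In bulk tissue, fewer cells of a type and less RNA per cell cannot be told apart.

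The order of the libraries was much the same for the 7 genes. Ctrl A was the lowest Ctrl library for 7 of 7 genes, as it was for 34.5% of recovered genes, and Ovp C was the highest Ovp library for 7 of 7, as it was for 31.9%. Both held at once for 7 of 7 genes and for 11.4% of recovered genes. Drd1, Drd2, Adora2a, Ppp1r1b and Rgs9 stood in the order A, B, C, lowest to highest, in both groups, as 2.97% of recovered genes did. The Ctrl libraries alone took that order for 6 of 7 genes and 18.4% of recovered genes, and the Ovp libraries for 5 of 7 and 13.1%. That order is also the order of falling scaling factor, so it ran with depth in both groups, and the part of depth was not tested.

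Those 5 genes moved closely together from library to library. Over the 6 libraries, the 10 pairs among them had Pearson r between 0.88 and 0.995 on the log2(scaled reads + 1) scale, with a median of 0.96. After removal of the group means the range was 0.86 to 0.997. Drd1 and Drd2, which mark separate populations of medium spiny neurons, formed the closest pair. The 11 pairs with Gpr6 or Pde10a had r between 0.27 and 0.75, with a median of 0.45, and between 0.49 and 0.85 after removal of the group means. All points share libraries, their depth and their scaling, and 6 points carry little precision, so these values are descriptions.

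Within a library, the ratio of the 2 dopamine receptors changed less than their levels. Reads of Drd1 per read of Drd2 were 3.32, 2.99 and 2.55 in Ovp A, B and C and 4.22, 3.29 and 2.86 in Ctrl A, B and C. The ratio was highest in library A of each group, where both receptors were low. Adora2a per Drd2 was 2.57, 2.94 and 2.72 in Ovp and 2.08, 3.01 and 2.32 in Ctrl. Rgs9 per Drd2 kept to 5.94, 6.01 and 5.37 in Ovp and 5.08, 6.07 and 5.73 in Ctrl. Gpr6 per Drd2 was 0.868, 0.743 and 0.631 in Ovp and 1.57, 1.22 and 0.786 in Ctrl, so that it covered a wider range than the other ratios. These ratios are of reads, without regard to gene length, and compare libraries, not genes.

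Other genes of striatal projection neurons were drawn from 4 lists with 33 genes, of which 32 were in the table and 31 were recovered and averaged 10 or more. Likeness to the 7 genes was measured as r, over the 6 libraries, to the mean of their standardised levels. It was at least 0.9 for 6 of the 31, namely Penk, Grik3, Syndig1l, Scn4b, Rarb and Ikzf1, against 142 of 15371 other recovered genes (0.924%). The median r was 0.73 for the 31 and 0.01 for all genes. Ctrl A was the lowest Ctrl library for 22 of 31 and Ovp C the highest Ovp library for 20.

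Penk, the precursor of enkephalin and the neuropeptide of the indirect pathway, had 461, 493 and 744 scaled reads in Ovp A, B and C and 341, 445 and 644 in Ctrl A, B and C. Grik3, a kainate receptor subunit also present in cortex, had 2480, 2290 and 2790 scaled reads in Ovp and 2081, 2374 and 2781 in Ctrl. Penk thus repeated the library order of Drd2 within each group, while Grik3 differed from it in Ovp B. The other 3 genes of the indirect pathway list, named after their values were seen, had r of -0.74 (Plxdc1), 0.21 (Sp9) and 0.28 (P2ry1), and the median r of the list was 0.28. Over the list the mean was higher in Ovp for 3 of 5 genes, and their median log2 fold change was 0.06.

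Among genes enriched in medium spiny neurons of both pathways, 9 of 10 had a higher mean in Ovp, and their median log2 fold change was 0.20. Scn4b, a sodium channel β subunit, had 789, 876 and 1261 scaled reads in Ovp A, B and C and 597, 849 and 1077 in Ctrl A, B and C. Syndig1l, a transmembrane protein related to a synapse differentiation factor, had 201, 296 and 395 in Ovp and 124, 229 and 310 in Ctrl. Both were lowest in Ctrl A and highest in Ovp C. Rasd2, a striatal small GTPase, varied less, with 1228, 1466 and 1589 scaled reads in Ovp and 1237, 1281 and 1458 in Ctrl. Tmem158, of the same list and named after its values were seen, was lowest in Ovp C with 388 scaled reads and had r of -0.58.

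Genes of the direct pathway had a median r of 0.58, and 0 of 8 were at 0.9 or more. Pdyn, the precursor of dynorphin and the neuropeptide of that pathway, had 582, 538 and 501 scaled reads in Ovp A, B and C and 619, 541 and 635 in Ctrl A, B and C. Its order was thus reversed to that of Drd1 in Ovp, and r was -0.50. Sfxn1, a mitochondrial serine transporter, had 1108, 1087 and 1116 scaled reads in Ovp and 1037.5, 1173 and 1184 in Ctrl. Of the list, 5 of 8 genes had a higher mean in Ovp, and the median log2 fold change was 0.07.

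Of 9 transcription factors of striatal projection neurons, several of which are also used in cortex, 8 had a higher mean in Ovp, with a median log2 fold change of 0.20. Rarb, a retinoic acid receptor of the striatum, had 174, 195 and 249 scaled reads in Ovp A, B and C and 146, 185 and 221 in Ctrl A, B and C. Ikzf1, which takes part in the making of enkephalin neurons, had 80.7, 86.6 and 103 in Ovp and 74.3, 89.6 and 100.4 in Ctrl. Both kept the order of Drd1 in each group. Bcl11b, which deep-layer cortical neurons also express, had 2006, 1435 and 2217 scaled reads in Ovp and 1959, 2167 and 1685 in Ctrl, with r of 0.14. Foxp1, shared with cortex too, averaged 4131 scaled reads in Ovp and 4110 in Ctrl and was not recovered by library.

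**Figure D2:**
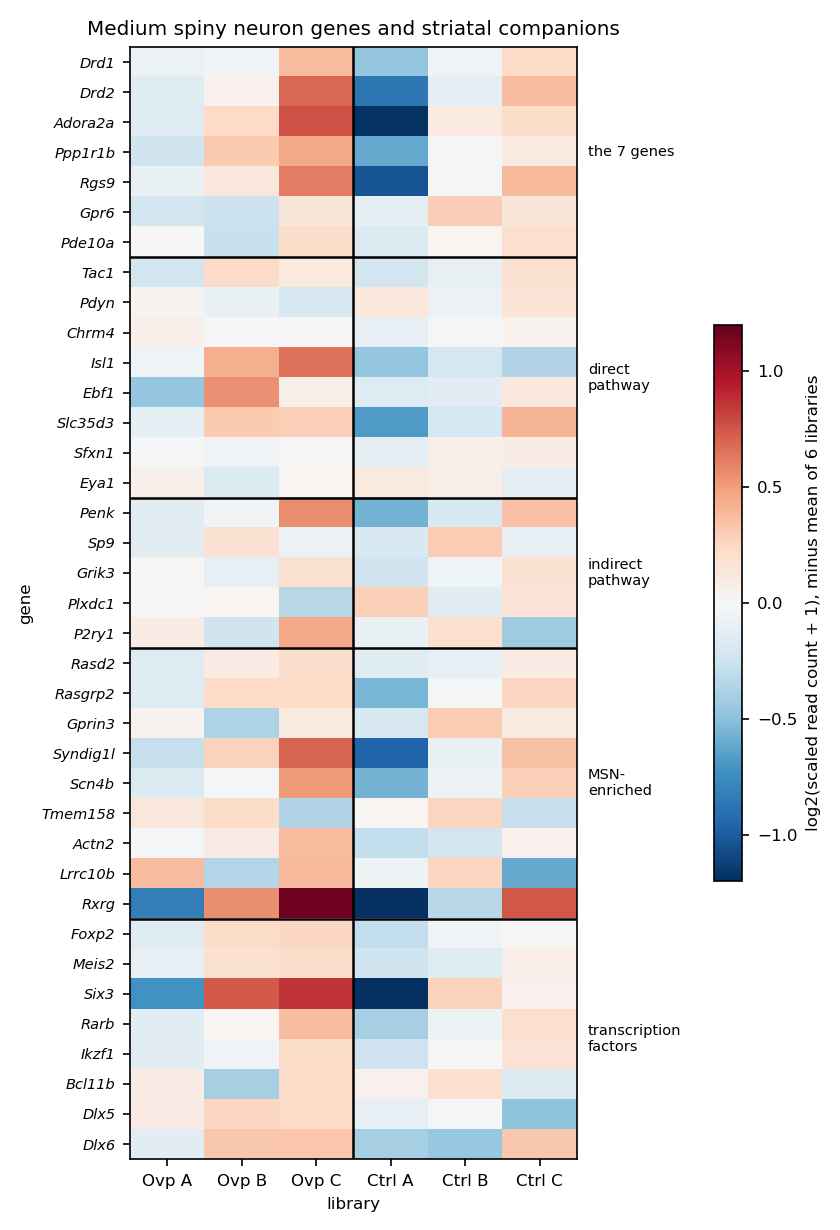
Colour shows log2(scaled reads + 1) minus the gene's mean over the 6 libraries, for the 7 genes and 30 of the striatal companions (rows, in list order) in the Ovp and Ctrl libraries (columns). Ctrl A is blue and Ovp C red for Drd1, Drd2, Adora2a, Ppp1r1b, Rgs9 and for companions such as Penk, Syndig1l and Scn4b, while Pdyn, Tmem158 and Bcl11b do not follow.

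Of the 31 companion genes, 24 had a higher mean in Ovp, with a median log2 fold change of 0.17. limma, fitted to all recovered genes, called 0 of 31 at an adjusted p under 0.05, where it called 0 of 15378 genes (0%). At an unadjusted p under 0.05 it gave 1 of 31, Actn2, and 229 of all genes (1.49%). Actn2, an actin crosslinker named after its values were seen, had 455, 493 and 601 scaled reads in Ovp A, B and C and 375, 395 and 479 in Ctrl A, B and C, and limma's adjusted p was 0.9996. Libraries of the 2 groups did not overlap for 2 of 31 genes, Isl1 and Dlx5, likewise named after their values were seen, which is near the share of 6.17% over all recovered genes.

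The signalling proteins around the 7 genes had a median r of -0.18 to them over the 10 recovered, while the summed level of those 10 had r of 0.91. That sum was 20293, 20684 and 21247 scaled reads in Ovp A, B and C and 20310, 20651 and 20981 in Ctrl A, B and C, a narrow range. Of 24 genes of the pathway from dopamine through cyclic AMP to DARPP-32, 23 were in the table. Their mean was higher in Ovp for 8 and lower for 15, with a median log2 fold change of -0.05. Of 10 genes recovered by library, 1 had r of at least 0.9. That was Adcy5, the adenylyl cyclase of the striatum, with 2721, 2618 and 3429 scaled reads in Ovp A, B and C and 2440, 2925 and 2969 in Ctrl A, B and C. The most abundant members of the list were the calcineurin subunits that remove phosphate from DARPP-32, which cortical neurons also express strongly. Ppp3ca averaged 29713 scaled reads in Ovp and 30402 in Ctrl, and Ppp3r1 averaged 13576 in Ovp and 14261 in Ctrl.

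The closest relatives of the 7 genes had a median r of -0.41, and their summed level had r of -0.01. Of 14 relatives, 4 had a higher mean in Ovp and 10 a lower mean, the median log2 fold change was -0.03, and 0 of 11 recovered and averaging 10 or more had r of 0.9 or more. Adora1, the A1 adenosine receptor, averaged 3145 scaled reads in Ovp and 3156 in Ctrl. Rgs6 had 2285, 2470 and 2389 scaled reads in Ovp A, B and C and 2410, 2516 and 2696 in Ctrl A, B and C. Drd5, the receptor nearest to Drd1 and named after its values were seen, had 45.6, 16.0 and 30.0 in Ovp and 44.8, 31.3 and 12.1 in Ctrl. In Ctrl its order was the reverse of that of Drd1.

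Genes for the making and clearance of dopamine gave 0 of 6 recovered with r of at least 0.9. Maoa, which oxidises dopamine, had 614, 669 and 759 scaled reads in Ovp A, B and C and 637, 680 and 726 in Ctrl A, B and C. Maoa kept the order of Drd1 within each group over a narrower range, with r of 0.86. Over the 6 libraries, though, Maoa was lowest in Ovp A, not Ctrl A.

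Markers of other cells were set beside the 7 genes to see which moved with them. The 7 genes summed to 4547, 4841 and 6312 scaled reads in Ovp A, B and C and 3587, 4878 and 5559 in Ctrl A, B and C. Markers of cholinergic neurons, listed for interneurons of the striatum but not tied to them here, had few reads. Chat, which makes acetylcholine, had 14.7, 25.4 and 23.8 in Ovp and 18.3, 24.8 and 41.9 in Ctrl. Slc5a7, the choline transporter, had 46.4, 45.2 and 57.9 in Ovp and 42.8, 47.5 and 35.3 in Ctrl, and Gbx2 was listed at 0 in Ctrl. Over 4 of the 5 markers the sum was 75.0, 91.3 and 107 in Ovp and 79.4, 92.9 and 106 in Ctrl, and it followed the order of Drd1 in each group, with r of 0.85 to the 7 genes.

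The summed markers of corticothalamic and layer 6b neurons, the deepest of the cortex, also moved with the 7 genes. The sum, of 6 of 7 markers, was 3208, 2728 and 3620 scaled reads in Ovp A, B and C and 2537, 2822 and 3564 in Ctrl A, B and C, with r of 0.83. Gene by gene the median r was 0.59, and 0 of 6 had r of 0.9 or more. For sums of the striatal lists, r was 0.93 for the indirect and 0.62 for the direct pathway. It was 0.94 for genes enriched in both pathways and 0.82 for the transcription factors. Syt6, a synaptotagmin of these cells, had 796, 853 and 984 in Ovp and 551, 753 and 1096 in Ctrl, and Tle4, a corepressor, had 1507, 1091 and 1525 in Ovp and 1230, 1270 and 1534 in Ctrl. The sum was lowest in Ctrl A and highest in Ovp C, as for the 7 genes, but within Ovp its lowest library was B. The part of these cells in the levels of the 7 genes was not tested.

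Other lists stood further apart. The sum of cortical excitatory markers had r of -0.35 to the 7 genes, that of hippocampal markers -0.52 and that of 4 thalamic markers -0.41. The 4 claustrum markers had 0.32, the 10 choroid plexus and ependymal markers 0.13, the 6 markers of microglia and endothelium 0.42, 2 oligodendrocyte markers of 8 had -0.08, and 1 astrocyte marker of 5 had 0.17. The abundant Slc17a7, the vesicular glutamate transporter of cortical neurons, averaged 30449 scaled reads in Ovp and 31689 in Ctrl. Cux2, of upper layers, averaged 3603 in Ovp and 3902 in Ctrl. All 8 oligodendrocyte genes had a higher mean in Ovp with a median log2 fold change of 0.10, among them Mbp with 57327 scaled reads in Ovp and 52980 in Ctrl. The glutamate transporters of astrocytes, Slc1a2 and Slc1a3, averaged 69614 and 10887 in Ovp and 72524 and 11309 in Ctrl. Csf1r, the microglial growth factor receptor, averaged 1639 in Ovp and 1597 in Ctrl, and Flt1, of vessels, 1235 in Ovp and 1153 in Ctrl. Gnb4 and Ntng2 of the claustrum averaged 1530 and 901 in Ovp and 1641 and 861 in Ctrl, and Prkcd of the thalamus 276 in Ovp and 235 in Ctrl. Prox1, of hippocampal granule cells, averaged 961 in Ovp and 834 in Ctrl.

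**Figure D3:**
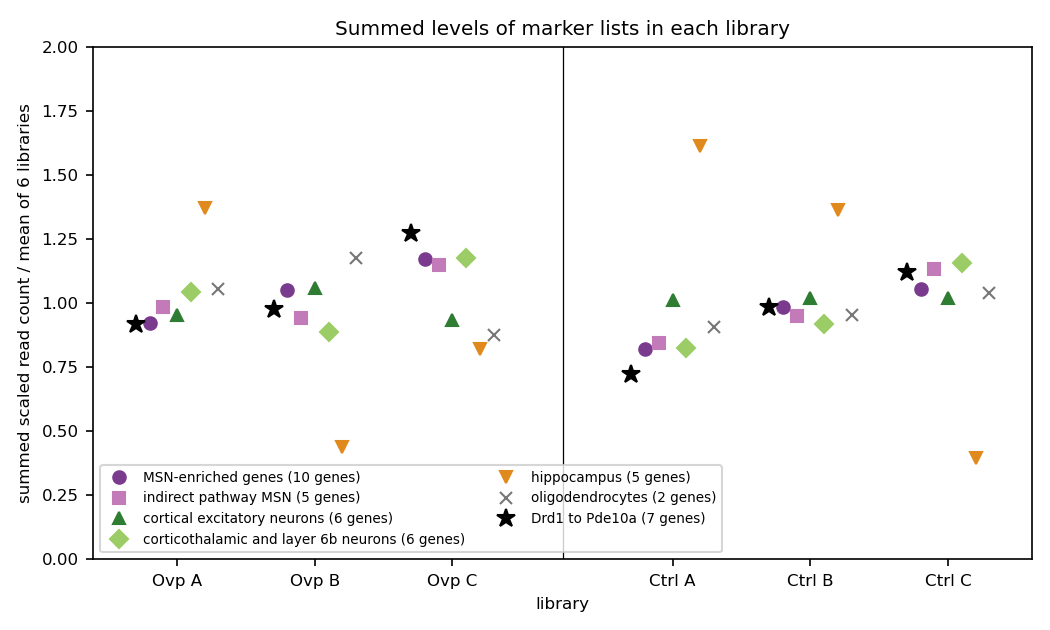
Summed scaled reads of each marker list divided by the list's mean over the 6 libraries (y axis) in the Ovp and Ctrl libraries (x axis), with black stars for the 7 genes. The stars run from 0.918 to 1.27 in Ovp and from 0.724 to 1.12 in Ctrl. Pde10a and Ppp1r1b, with the most reads of the 7 genes, weigh most in them. The stars are lowest in Ctrl A and highest in Ovp C. So are the symbols of the indirect pathway list, the list enriched in both pathways and the corticothalamic list. Within Ovp the stars are lowest in A, but the indirect pathway and corticothalamic symbols are lowest in B. The stars lie apart from the symbols of hippocampus. The direct pathway and striatal transcription factor lists are not drawn.

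Over the whole recovered table, the 10 genes most like the mean of the 7 had r of 0.97 to 0.98. Scn4b and Ikzf1 were among them, as were Jpt2, Trim36, Clic5, Slc25a20, Kif7, Gm42427 and Pofut1. Clic5, a chloride intracellular channel protein, had 205, 215 and 255 scaled reads in Ovp A, B and C and 170, 208 and 235 in Ctrl A, B and C. Slc25a20, the mitochondrial carnitine carrier, had 249, 264 and 287 in Ovp and 232, 261 and 275 in Ctrl. Slc25a20 shares the order of the libraries but spans 1.23-fold, so a high r does not imply as wide a range. Of all other recovered genes, 120 had r of -0.9 or lower, about as many as the 142 at 0.9 or higher.

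**Figure D4:**
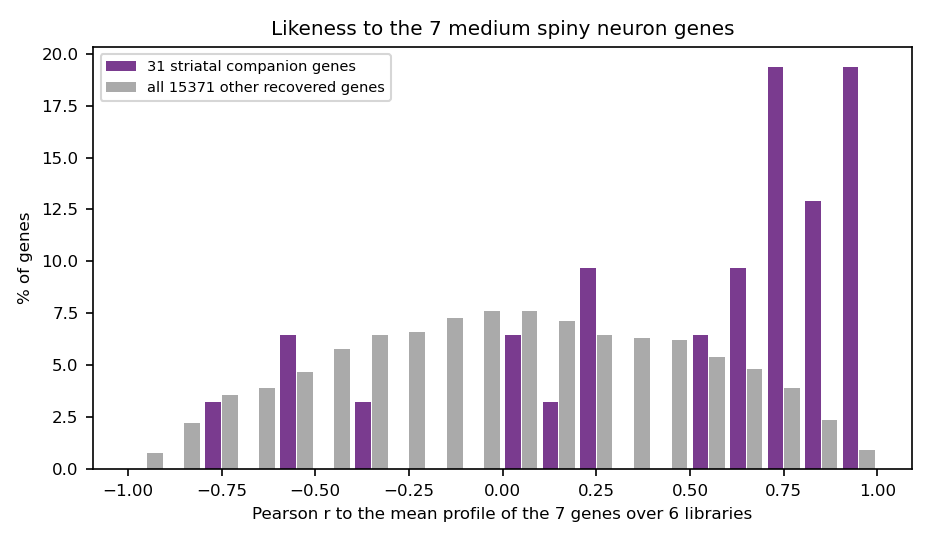
Share of genes (y axis, percent) by Pearson r over the 6 libraries to the mean profile of the 7 genes (x axis, bins of 0.1), for the 31 striatal companions and all 15371 other recovered genes. The companions centre on a median of 0.73 and 6 lie at 0.9 or above, while all genes centre on 0.01.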

How the data were processed

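Per the labels' protocols, tissue was snap-frozen, Trizol was used to extract RNA and TruSeq RNA libraries followed. The submitters' processing notes list TopHat2 2.0.9 and Bowtie2 2.0.6. The sources used here do not state the counter, strand setting, annotation, genome build or test. The authors deposited, per gene and group, 1 signal value. The values show it to be a mean of 3 libraries' reads, each divided by that library's scaling factor. These means sum to 18602579 in Ovp and 19016749 in Ctrl. Per the file headers, the deposited table also held p-values of the authors' comparison, raw and adjusted. Fold changes were recomputed from the means.

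The decision to recover library values came after the data were seen. The lowest means take 3 step sizes, 1 for each library and equal to a single read's value there, and whole reads of 3 libraries were sought that give each mean to 10 significant digits, for means up to 3000. Where several combinations did, the pair kept was the one whose p, from an exact negative binomial test, equalled the deposited p to 5 significant digits. The dispersion in that test was the larger of the gene's own over the 6 libraries and that of a trend with the mean. The trend was fitted to 1668 genes with a single combination. Among genes averaging 10 or more that had a single combination, that p matched for 8036 of 8047 (99.9%). Recovery reached 15378 of 17095 such genes (90.0%), of which 7342 were settled by the p. Drd2 and Gpr6 had 1 combination in each group. Rgs9 had 5 in Ovp and 1 in Ctrl, Drd1 and Adora2a had 2 in Ovp and 1 in Ctrl, Ppp1r1b had 84 and 17, and Pde10a had 117 and 59, with 1 pair matching the p in each gene.

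With a trend, limma 3.58.1 (R 4.3.3) was fitted to log2 of the recovered value plus a pseudocount of 1, adjusted by the Benjamini-Hochberg method, so folds of low genes are understated. Other values were computed in Python 3.11.15. Exon lengths and loci are from GENCODE on GRCm38, which may not be the authors' annotation, and 98.8% of Ensembl IDs matched a symbol. Recovery and limma were tested on simulated data. The 7 genes and the 17 lists were chosen with earlier results of these data known. Named genes were the 7, in each list those with r of at least 0.9, the 2 of highest mean and any with an authors' unadjusted p under 0.05, and the 10 genes with the highest r; some of these are not reported here. Alternatives were other scalings, a pseudocount, other filters, Spearman's rho, leaving out 1 gene of the 7, and leaving out each library.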

Additional observations from a re-analysis of the deposited data

How the results depend on the processing

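The median log2 fold change of the 7 genes ranged from 0.05 without Ctrl A to 0.50 without Ovp A as each library was left out, and 5 or 6 of 7 means stayed higher in Ovp. Without a library, Drd1 ranged from 0.01 to 0.35, Drd2 from 0.07 to 0.69, Adora2a from 0.17 to 0.73 and Ppp1r1b from 0.16 to 0.53. Rgs9 ranged from 0.05 to 0.69, Gpr6 from -0.36 to -0.12 and Pde10a from -0.16 to 0.09. All lay within 1 SD of the values above, but leaving out 1 of 3 libraries can hardly move a mean further. That bound therefore does not show stability. The median was 0.38 with groups rescaled to an equal sum, 0.37 when centred and 0.35 with a pseudocount of 1. At an unadjusted p the authors' deposited table gives 161 genes against 0 at an adjusted p. limma called 0 genes at an adjusted p in each setting, and at an unadjusted p it gave 140 to 479 genes with a library left out, 480 without the filter on low means, 133 at a mean of at least 50 and 226 after centring, against 229. Groups did not overlap for 639 genes at a mean of at least 50 and 942 after centring, against 949. The count of genes with r of at least 0.9 was 156 by Spearman's rho, 115 after centring and 133 to 151 without 1 of the 7 genes, against 142. No paired analysis was possible because the recovered libraries carry no replicate numbers.

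Groups of 3 libraries limit every value, and counting error was largest for Drd2 and Gpr6, with 51 to 149 and 78 to 100 reads per library. The values by library rest on the recovery. The deposited means alone carry no spread.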

Other observations

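Outside the striatal genes, the authors' deposited table gives 3 of 139 genes of the lists an unadjusted p under 0.05, each with an adjusted p of 1, where 161 of 30152 tested genes (0.534%) have one. Nxph4, a neurexophilin of layer 6b, had 101, 124 and 98.3 scaled reads in Ovp A, B and C and 63.1, 69.1 and 78.3 in Ctrl A, B and C, and the groups did not overlap (p = 0.00413 in the authors' deposited table). Cplx3, a complexin of layer 6b that was not recovered by library, averaged 606 scaled reads in Ovp and 465 in Ctrl (p = 0.00459 in the authors' deposited table). Slc17a6, the vesicular glutamate transporter of the thalamus, had 476, 442 and 426 scaled reads in Ovp and 649, 484 and 619 in Ctrl, with all Ovp libraries below all Ctrl libraries (p = 0.0111 in the authors' deposited table). Nxph4 and Slc17a6 were named for that p, so the separation of their libraries is not separate evidence. Of all recovered genes, 949 of 15378 (6.17%) did not overlap.

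Some markers from beyond the cortex differed widely between libraries. Ttr, the transthyretin of the choroid plexus, had 97.8, 170 and 97.3 scaled reads in Ovp A, B and C and 76.4, 713 and 79.4 in Ctrl A, B and C. Foxj1, of ciliated ependyma, varied less, with 123, 125 and 110 in Ovp and 92.7, 148 and 110 in Ctrl. Dsp, a desmosomal gene of hippocampal dentate granule cells named after its values were seen, had 406, 10.4 and 199 in Ovp and 340, 216 and 9.93 in Ctrl.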
